A study of Homo sapiens with 8 samples.

Results

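Passenger genes of a recurrent chromosome 20 gain, HM13, PDRG1, XKR7, TM9SF4, PLAGL2, POFUT1, KIF3B, ASXL1, NOL4L and COMMD7, are described here across 4 passage stages of one human embryonic stem cell (hESC) line. They are genes of band 20q11.21 that lie from HM13 to COMMD7, taken without TPX2, BCL2L1 and ID1, and they are 10 of 60675 genes in the expression tables and 10 of the 46 genes listed inside chr20:31514410-32743997 (GRCh38). The interval was selected on the RNA levels of late against early passages in these same samples. The rise of the 10 genes in late passages is therefore given as a description, with no test, and tests are kept for the comparisons within the late and within the early passages.

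The study sequenced mRNA of H9 hESCs (WA09), an established line, as P1 (passage 40s), P2 (passage 100s), P3 (passage 200s) and P4 (passage 300s), with 2 samples per stage and 8 in all. All 4 groups were grown without feeder cells in mTeSR1 medium on Matrigel and passaged with dispase, with no other treatment or engineered allele. Each stage is the same cell line after a different time in culture, and the sources used here do not say whether the 2 samples of a stage were separate cultures. The p-values below therefore measure only the spread between these samples, which may be technical. With 2 samples against 2, an exact two-sided permutation test of a single gene cannot go below p = 0.333, so the tests are those of a model fitted across all genes.

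Gain of 20q11.21 is known as one of the most frequent changes that human pluripotent stem cells pick up in long culture. BCL2L1, which encodes the anti-apoptotic protein BCL-xL, is the gene of this band most often linked to the growth advantage of such cells. The other genes carried along with it are commonly called passengers. As a reference for gene dosage, an RNA level proportional to the number of gene copies would be 1.5 times higher with 3 copies in place of 2, and 2 times higher with 4. Copy number itself was not measured in the files analysed here.

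The libraries held 26874899 to 38095600 expected counts. Mitochondrially encoded RNA took 5.89% to 18.5% of them, and the 2 samples of a stage differed in this share in P1 (9.84% and 18.5%), P3 (18.4% and 7.53%) and P4 (17.2% and 5.89%) but little in P2 (6.55% and 6.72%). All 10 pluripotency markers examined, POU5F1, NANOG and SOX2 among them, were above 10 TPM (transcript abundance scaled by length and library size) in every sample, with a sum of 3316 to 4955 TPM. A list of 7 mesendoderm markers summed to 1.32 to 4.26 TPM, with TBXT, GSC, SOX17 and GATA6 under 1 TPM throughout. FOXA2, an endoderm transcription factor on this list, was at 2.72 and 3.63 TPM in P3 and at 0.08 to 0.53 TPM in all other samples, and its part in the P3 values below was not tested. A list of 7 neuroectoderm markers summed to 125.5 to 213.7 TPM, most of it NES, with PAX6, SOX1, OTX1 and NEUROG2 under 1 TPM. A list of 7 fibroblast markers summed to 461.8 to 778.4 TPM, carried by COL1A1, COL1A2 and THY1, the last of which pluripotent cells also express, with COL3A1, DCN and LUM under 1 TPM. Its sum was 461.8 and 469.4 TPM in P1, 601.0 and 631.3 in P2, 492.8 and 493.9 in P3, and 552.9 and 778.4 in P4, and its part in the results below was not tested. The members of this list moved in different directions. From P1 to P4, THY1 went from 323 and 232 TPM to 428 and 648. COL1A1 went from 92.8 and 150 to 64.1 and 61.5, and PDGFRB from 6.10 and 5.48 to 2.17 and 3.98. COL1A2 was at 47.8 and 73.5 in P1 and within that range in P4.

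The 10 genes were higher together in P3 and P4 hESCs and stood at the early level in P2 hESCs. Their summed expression was 192.3 and 209.3 TPM in the P1 samples and 189.3 and 196.7 TPM in the P2 samples. It was 522.2 and 578.4 TPM in the P3 samples and 443.4 and 588.1 TPM in the P4 samples. Relative to P1, the median of the 10 log2 fold changes was 1.56 in P3, a fold of 2.96, and 1.37 in P4, a fold of 2.59, where the median of all 19499 tested genes was -0.02 and -0.01. In P2 the median of the 10 genes was -0.04. The comparisons of P3 and of P4 share the same P1 samples, so the values of the 2 late stages are set side by side and not counted as separate evidence.

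**Figure D1:**
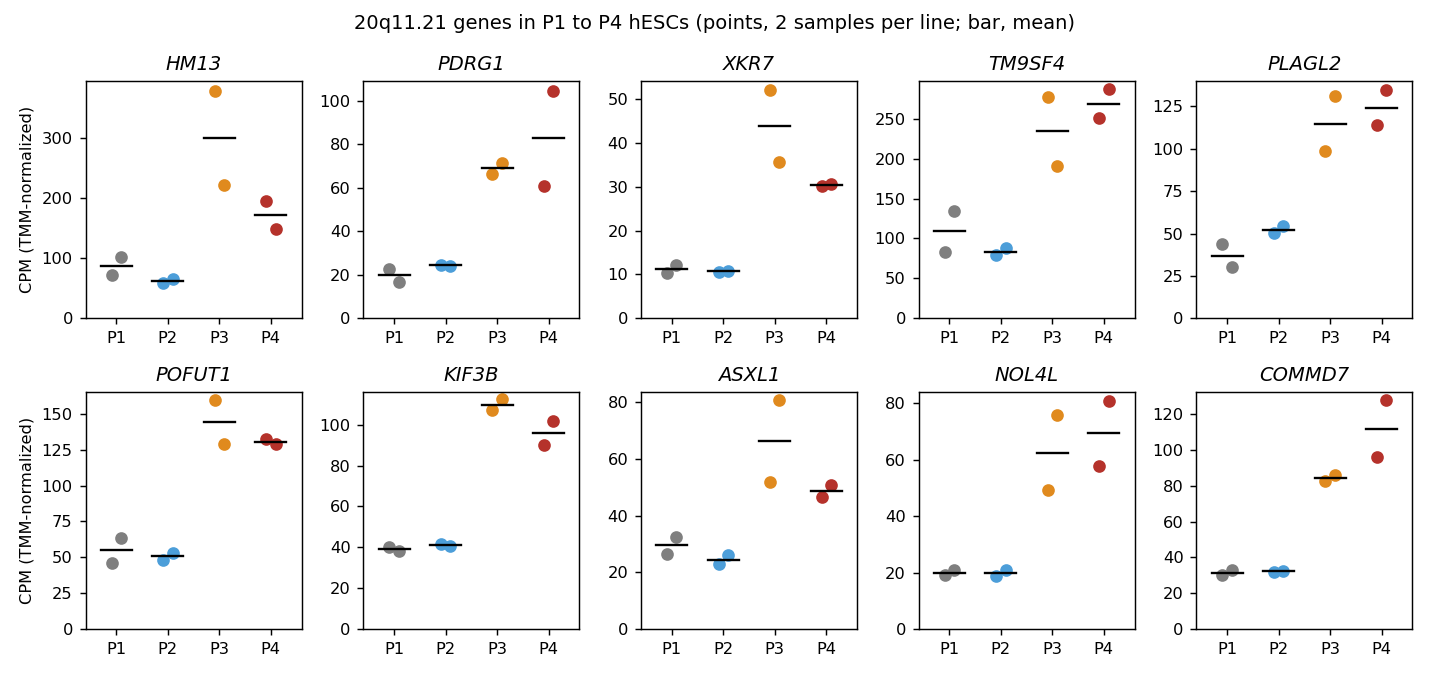
TMM-normalized CPM (vertical axes, counts scaled by library size) of the 10 genes in P1 to P4 hESCs, with 1 point per sample, 2 samples per stage and a bar at their mean; each panel has its own vertical scale from 0. In every panel the 4 late points lie above the 4 early points, and the 2 points of a late stage lie far apart for HM13 and ASXL1 in P3 and for PDRG1 in P4.

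All 10 genes passed the filter on low counts. Levels of single samples are given as CPM, counts scaled by library size, after normalization by the trimmed mean of M values (TMM). The lowest late sample exceeded the highest early sample for each of them, which held for 8.38% of all tested genes. All 10 were above a fold of 1.5 relative to P1 in both late stages, against 13% of tested genes in P3 and 12.6% in P4. Above a fold of 2 were 10 of 10 in P3, against 4.8% of tested genes, and 8 of 10 in P4, against 5.58%. The exceptions in P4 were HM13 and ASXL1. Nothing is read from these counts, because the contrast also set the boundaries.

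In the interval they share, nearly all tested genes were higher than in P1 in each late stage. Of the 46 genes listed there, 24 passed the filter on low counts, the 10 genes and 14 others. The 14 others had a median log2 fold change of 1.44 in P3 and 1.64 in P4, with 13 of 14 above 0 in each, where 48.4% and 49.3% of all tested genes were. Some of the 14 passed the filter only through late samples. MCTS2 had 0 to 5.12 counts in the early samples and 33.12 to 42 in the late ones, and TTLL9 had 2 to 7 and 7.01 to 13. A gene low in early passages could enter only by being higher late, so the filter can raise these values. The one below 0 in P3 was ID1, a helix-loop-helix inhibitor of differentiation, at -0.63 ± 0.30 (SE), which stood at 1.14 ± 0.30 in P4. In P4, ENSG00000226239, a gene without a symbol, was at -0.26 ± 0.47. BCL2L1 had log2 fold changes of 1.54 ± 0.21 in P3 and 1.21 ± 0.21 in P4, within the range of the 10 genes, and TPX2, a spindle assembly factor, had 2.36 ± 0.24 and 2.08 ± 0.24, above all 10 in P3 and within its SE of PDRG1 in P4.

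On the distal side, the nearest tested genes after COMMD7 did not share the rise. The late against early values of these same samples set this boundary, so its place restates the selection and is given as a description. DNMT3B, a DNA methyltransferase, starts 18388 bases after the end of COMMD7 and had log2 fold changes of 0.11 ± 0.22 in P3 and 0.28 ± 0.22 in P4. MAPRE1, which encodes the microtubule end-binding protein EB1 and starts 75896 bases away, had 0.34 ± 0.19 and -0.08 ± 0.19. COMMD7 was the last gene inside the boundary, at 1.43 ± 0.20 and 1.83 ± 0.20. The first 10 tested genes after COMMD7 had medians of -0.15 and -0.08, and the 154 tested genes of 20p had -0.07 and -0.15.

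On the proximal side, near the centromere, 3 tested genes lay on 20q before HM13, and all 3 were higher in P4 than in P1. The 2 nearest were far away and had no counts in early passages. FRG1BP, a pseudogene 1115153 bases before HM13, had 0 counts in all 4 P1 and P2 samples, 0 and 1.03 in P3, and 40.16 and 59.41 in P4. It was at least 17.8-fold higher in P4 than in P1. LINC01597, a non-coding RNA gene, was also at 0 in P1 and P2, had 9 and 4 counts in P3 and 25 and 19 in P4, and was at least 2.09-fold and 7.92-fold higher than in P1. FRG1BP belongs to a family of near-identical copies, between which reads may be split. Both genes passed the filter on low counts only through P4. No tested gene on this side stood at its early level in P4, so a proximal limit of the rise is not shown. HM13, the first gene of the interval, had 1.78 ± 0.28 in P3 and 0.98 ± 0.27 in P4.

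**Figure D2:**
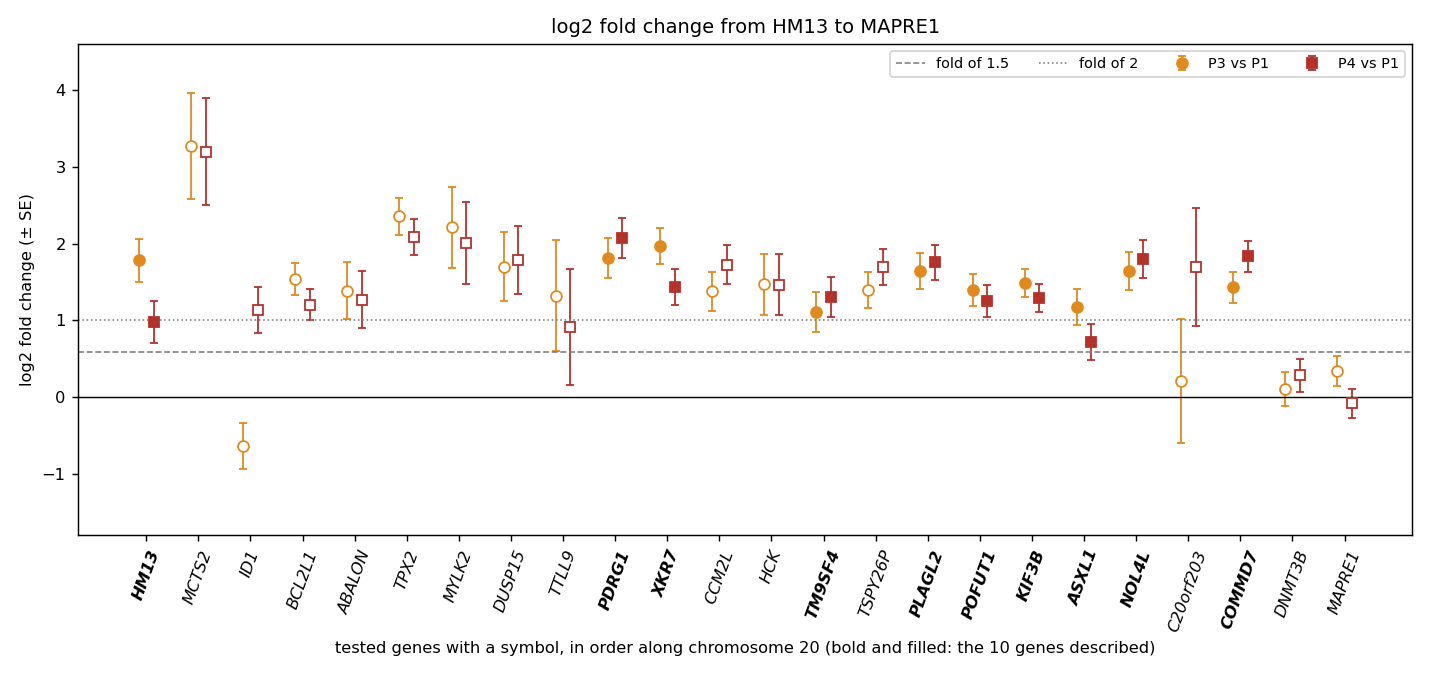
Log2 fold change against P1 (vertical axis, with SE bars) of the tested genes with a symbol from HM13 to MAPRE1, in order along the chromosome, in P3 (circles) and P4 (squares); filled symbols and bold names are the 10 genes, and 2 tested genes without a symbol are not drawn. The 10 genes lie between 0.72 and 2.07, all above the dashed line of a 1.5-fold change, while DNMT3B and MAPRE1 lie at 0.34 or less and MCTS2, whose P1 counts were near 0, has the highest values.

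The promoters of the genes are shown because genes that move together may be asked for shared letters at their starts. RefSeq promoter windows (GRCh38.p14, 250 bases before to 50 after a start) existed for 8 of the 10 genes, 11 windows in all, and were missing for HM13 and XKR7. The windows held 54.3% to 82% G and C, where the median of 35116 promoters was 58.7%, and 16 to 49 CpG pairs, where the median was 14. Short motifs were searched on both strands, with overlapping matches counted separately. The GC box GGGCGG was present for 7 of the 8 genes, all but TM9SF4, in 8 of the 11 windows and in 44.95% of all promoters. The CCAAT box was present for 1 gene (KIF3B; 34.6% of all promoters), the TATA box TATAAA for none (11.5%), the ETS core CCGGAAG for 2 (PDRG1 and ASXL1; 10.3%), the E-box CACGTG for 1 (TM9SF4; 7.26%) and the half-site TGACGT for 1 (TM9SF4; 7.98%). No motif was shared by all 8 genes.

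The windows printed are those of the divergent pair POFUT1 and PLAGL2, and those of PDRG1 and COMMD7, the genes with the largest log2 fold changes in P4. Each is written from 5′ to 3′ on the strand of its gene, with GC boxes of either strand in capitals.
POFUT1, chr20:32207630-32207929, plus strand: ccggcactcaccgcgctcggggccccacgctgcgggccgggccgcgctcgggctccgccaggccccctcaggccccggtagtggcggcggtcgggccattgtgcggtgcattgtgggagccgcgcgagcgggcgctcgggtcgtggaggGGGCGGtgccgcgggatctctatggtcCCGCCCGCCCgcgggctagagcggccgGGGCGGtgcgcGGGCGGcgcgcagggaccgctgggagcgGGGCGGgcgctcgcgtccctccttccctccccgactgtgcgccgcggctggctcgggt
PLAGL2, chr20:32207694-32207993, minus strand: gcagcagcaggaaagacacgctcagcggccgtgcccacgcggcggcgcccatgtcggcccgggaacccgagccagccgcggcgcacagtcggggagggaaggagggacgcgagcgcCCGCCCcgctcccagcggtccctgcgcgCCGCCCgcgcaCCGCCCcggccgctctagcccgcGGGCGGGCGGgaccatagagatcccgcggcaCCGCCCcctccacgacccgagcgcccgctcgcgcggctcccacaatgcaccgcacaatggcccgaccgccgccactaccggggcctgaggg
PDRG1, chr20:31951997-31952296, minus strand: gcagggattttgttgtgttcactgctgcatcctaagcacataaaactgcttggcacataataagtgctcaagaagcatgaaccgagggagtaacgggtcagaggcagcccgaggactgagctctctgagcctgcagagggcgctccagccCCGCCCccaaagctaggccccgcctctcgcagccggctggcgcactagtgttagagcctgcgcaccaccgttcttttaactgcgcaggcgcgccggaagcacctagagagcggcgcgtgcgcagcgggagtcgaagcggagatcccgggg
COMMD7, chr20:32743418-32743717, minus strand: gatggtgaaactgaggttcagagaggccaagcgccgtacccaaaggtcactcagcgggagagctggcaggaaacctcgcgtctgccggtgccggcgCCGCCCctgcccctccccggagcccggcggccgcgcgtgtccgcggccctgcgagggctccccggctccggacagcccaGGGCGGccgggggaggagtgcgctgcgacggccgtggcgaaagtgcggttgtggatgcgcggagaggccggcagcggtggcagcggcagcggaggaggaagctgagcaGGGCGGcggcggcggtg
The starts of POFUT1 and PLAGL2 lie 137 bases apart on opposite strands, and their windows share 236 bases, so that the GC boxes of the 2 windows are the same 6 boxes. PDRG1 has 1 GC box and COMMD7 has 3.

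Of the membrane protein genes, HM13 and TM9SF4 had the highest mean TPM of the 10 in every stage and XKR7 the lowest. HM13 (ENSG00000101294, chr20:31514410-31577923, plus strand) encodes signal peptide peptidase, which cuts signal peptides within the membrane of the endoplasmic reticulum. It was at 71.7 and 102 CPM in P1, 57.8 and 65.2 in P2, 378 and 221 in P3, and 195 and 148 in P4. P3 was thus the highest stage, both P4 samples were below both P3 samples, and both were above all early samples. Its log2 fold change against P1 was 1.78 ± 0.28 in P3 and 0.98 ± 0.27 in P4, so HM13 was near the low end of the 10 genes in P4 and near the high end in P3. Exons of HM13 overlap MCTS2, a gene on the same strand, and an antisense gene, HM13-AS1, so its counts may include or lose some reads of these.

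TM9SF4 (ENSG00000101337, chr20:32109506-32167258, plus strand) encodes a protein with 9 membrane passes of the Golgi and endosomes. It was at 82.6 and 135 CPM in P1, 79.2 and 87.5 in P2, 278 and 191 in P3, and 251 and 287 in P4. The late samples were all higher, but the P1 samples spread widely, and its rise was the smallest of the 10 in P3, with log2 fold changes of 1.11 ± 0.26 in P3 and 1.31 ± 0.26 in P4. Without P1 replicate 2 these were 1.51 and 1.70, and without P1 replicate 1 they were 0.82 and 0.99.

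XKR7 (ENSG00000260903, chr20:31968002-32003387, plus strand) belongs to the XK family, some members of which scramble membrane phospholipids in dying cells. Its expression was the lowest of the 10 per transcript length, at 1.69 ± 0.02 TPM in P1 and 5.99 ± 0.09 TPM in P3 (SD, n = 2). It was at 10.4 and 12.03 CPM in P1, 10.5 and 10.8 in P2, 52.0 and 35.7 in P3, and 30.1 and 30.6 in P4. This was the largest rise of the 10 in P3, 1.97 ± 0.23, and it was 1.44 ± 0.23 in P4, where neither sample reached the level of either P3 sample.

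Genes of protein assembly, modification and transport formed the next group. PDRG1 (ENSG00000088356, chr20:31944342-31952092, minus strand) encodes a prefoldin-like subunit of the PAQosome, a co-chaperone that helps assemble large protein complexes. It was at 22.7 and 16.6 CPM in P1, 24.6 and 24.1 in P2, 66.4 and 71.6 in P3, and 61.0 and 105 in P4. Both P3 samples were close together, and the P4 samples lay on either side of them. Its log2 fold change was 1.81 ± 0.26 in P3 and 2.07 ± 0.26 in P4, the largest of the 10 in P4. Without P4 replicate 2, the P4 value was 1.63. Its exons overlap those of TTLL9 on the other strand.

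POFUT1 (ENSG00000101346, chr20:32207880-32238667, plus strand) encodes the enzyme that adds O-fucose to Notch receptors and their ligands in the endoplasmic reticulum. It was at 45.8 and 63.6 CPM in P1, 48.3 and 53.3 in P2, 160 and 129 in P3, and 132 and 129 in P4. The late stages overlapped, and the log2 fold changes were 1.40 ± 0.21 in P3 and 1.26 ± 0.21 in P4.

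KIF3B (ENSG00000101350, chr20:32277664-32335011, plus strand) encodes a motor subunit of kinesin-2, which carries cargo along microtubules and into cilia. It was at 40.1 and 38.3 CPM in P1, 41.9 and 40.8 in P2, 107 and 113 in P3, and 90.1 and 102 in P4. Of the 10 genes it had the smallest SE, with log2 fold changes of 1.49 ± 0.18 in P3 and 1.29 ± 0.18 in P4. Its profile over the 8 samples was also nearest to the mean profile of the 10, with a root mean square difference of 0.11 on the log2 scale, whereas HM13 was farthest, at 0.39.

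COMMD7 (ENSG00000149600, chr20:32702691-32743997, minus strand) encodes a subunit of Commander, a complex that returns membrane proteins from endosomes to the cell surface. It was at 30.0 and 32.8 CPM in P1, 31.8 and 32.6 in P2, 83.0 and 86.1 in P3, and 96.0 and 128 in P4. It was the one gene of the 10 with both P4 samples above both P3 samples, with log2 fold changes of 1.43 ± 0.20 in P3 and 1.83 ± 0.20 in P4. Its TPM values for the same stages overlapped, at 53.5 and 80.3 in P3 and 67.4 and 107 in P4.

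Nuclear proteins made up the rest. ASXL1 (ENSG00000171456, chr20:32358330-32439319, plus strand) encodes the partner that activates BAP1, the enzyme which removes ubiquitin from histone H2A. It was at 26.5 and 32.4 CPM in P1, 22.9 and 26.04 in P2, 52.0 and 80.8 in P3, and 46.5 and 50.6 in P4. Its rise was the smallest of the 10 in P4, 0.72 ± 0.23, and it was 1.17 ± 0.24 in P3. Without P3 replicate 2, the P3 value was 0.82.

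PLAGL2 (ENSG00000126003, chr20:32192503-32207791, minus strand) encodes a zinc finger transcription factor. It was at 43.7 and 29.9 CPM in P1, 50.03 and 54.4 in P2, 98.9 and 131 in P3, and 114 and 135 in P4. The log2 fold changes were 1.64 ± 0.23 in P3 and 1.76 ± 0.23 in P4. PLAGL2 and its divergent neighbour POFUT1 share the window printed above, although in P2 both PLAGL2 samples were above both P1 samples while those of POFUT1 were not.

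NOL4L (ENSG00000197183, chr20:32443059-32585074, minus strand) was at 19.1 and 20.8 CPM in P1, 18.8 and 20.8 in P2, 49.2 and 75.8 in P3, and 58.0 and 81.0 in P4. The late stages overlapped, and the log2 fold changes were 1.65 ± 0.25 and 1.80 ± 0.25. The mean length of its expressed transcripts, as the authors' counting weighted them, was 2978 and 2813 bases in P1, 3058 and 2855 in P2, 2954 and 3891 in P3, and 3400 and 3682 in P4. The longest values were thus in late samples, but 1 P3 sample was inside the early range. Length also varied for other genes. Its range over the 8 samples was 33.6% of the mean for NOL4L, 27.8% for POFUT1 and 27.4% for ASXL1. POFUT1 and ASXL1 were shortest in P4 replicate 2, at 3833 and 3300 bases, and were at 4695 and 4310 in P4 replicate 1. For PDRG1, XKR7, PLAGL2 and KIF3B the tables list 1 transcript each, so their length is fixed.

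On the TPM scale, which corrects for length, HM13 was the most abundant of the 10 in every stage and XKR7 the least. In P1 hESCs HM13 was at 80.4 ± 12.2 TPM (SD, n = 2, as for all values of this paragraph), TM9SF4 at 36.0 ± 9.04 and COMMD7 at 24.3 ± 1.05. POFUT1 (13.4 ± 0.47) and PDRG1 (12.8 ± 4.26) came next and did not differ beyond their spread. NOL4L (8.52 ± 0.14), ASXL1 (8.23 ± 0.11), PLAGL2 (7.86 ± 2.96) and KIF3B (7.70 ± 1.15) lay together. In P4 hESCs the order began with HM13 (156.1 ± 11.7), TM9SF4 (89.8 ± 23.9), COMMD7 (87.1 ± 27.9) and PDRG1 (54.8 ± 27.4). Of these, TM9SF4, COMMD7 and PDRG1 did not differ beyond their spread. Across the 10 genes, the P1 level had a Spearman correlation of -0.31 with the rise in P3 and -0.07 with that in P4. The points share their libraries, and the same P1 values enter both axes.

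The first tested comparison asked whether the 10 genes differed between P4 and P3 hESCs. The thresholds were those of the study, a log2 fold change beyond 1 in either direction with a false discovery rate (FDR) under 0.01. None of the 10 passed them by edgeR's quasi-likelihood test, where 0.815% of tested genes passed. At an unadjusted p under 0.05 there were 2 of 10, HM13 and XKR7, where 19.2% of tested genes were under it. DESeq2 also passed none, where it passed 3.13% of genes, and 2 were under an unadjusted p of 0.05, where 10.7% were. HM13 was lower in P4 by a log2 fold change of -0.81 (95% interval -1.39 to -0.22, adjusted p = 0.127 by edgeR with Benjamini-Hochberg adjustment). With DESeq2 its adjusted p was 0.049, and over all alternatives the adjusted p ranged from 0.013 to 0.52. The value was -0.37 without P3 replicate 1 and -1.15 without P3 replicate 2.

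XKR7 was at -0.53 in the same comparison (95% interval -1.02 to -0.04, adjusted p = 0.22 by edgeR), and without P3 replicate 1 at -0.24. ASXL1 was at -0.45 (-0.95 to 0.05, adjusted p = 0.313 by edgeR) and, without P3 replicate 2, at -0.10. COMMD7 was at 0.40 (-0.02 to 0.82, adjusted p = 0.278 by edgeR) and, without P4 replicate 2, at 0.18. The others lay between -0.20 for KIF3B and 0.27 for PDRG1, with intervals that all included 0. The P3 and P4 samples did not overlap for 5 of the 10 genes (HM13, XKR7, KIF3B and ASXL1 lower in P4, COMMD7 higher), and for 46.1% of all tested genes.

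Over the 10 genes, 5 of the P4 minus P3 values were above 0, where 50.6% of all tested genes were, and 5 below, with a median of -0.01, where that of all genes was 0.01. On the log2(TPM + 1) scale the median was 0.17 and POFUT1 was at 0.14 in place of -0.14. The 10 intervals together reached from -1.39 to 0.82, and those of HM13 and XKR7 still held a value of -1, a level 2 times lower in P4. Of the other genes of the interval, ID1 passed the thresholds in this comparison, at 1.77 ± 0.31 (adjusted p = 0.0096 by edgeR), and the call ended without any one sample other than P4 replicate 1 (adjusted p = 0.012 to 0.073 by edgeR). Along the chromosome, the P4 minus P3 values of the 10 genes had a Spearman correlation of 0.36 with gene order.

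**Figure D3:**
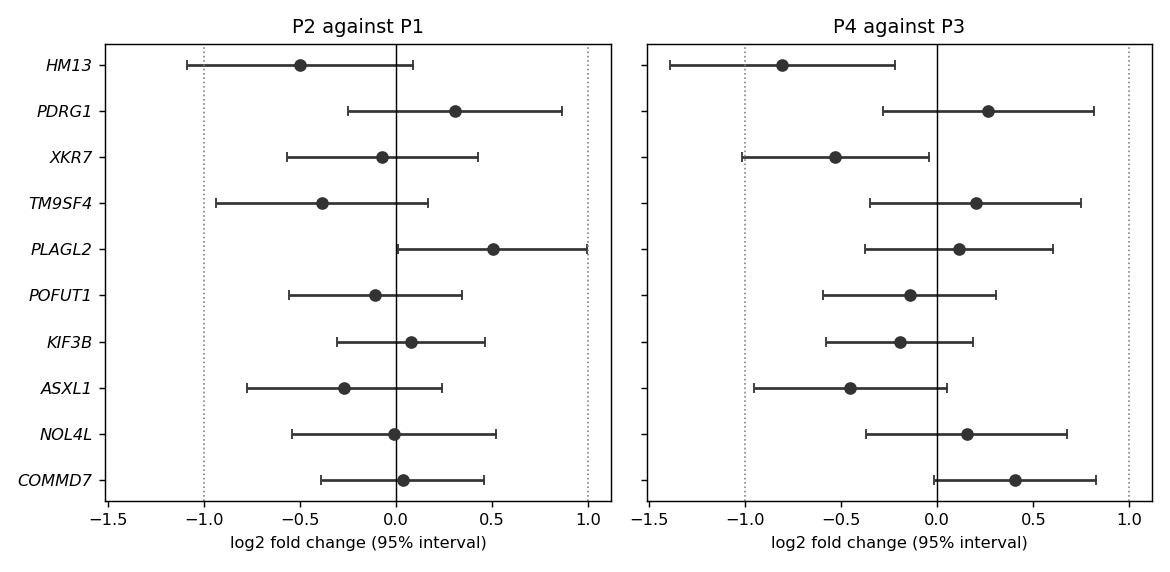
Log2 fold change with its 95% interval for the 10 genes in P2 against P1 (left) and in P4 against P3 (right), in chromosome order from top to bottom; dotted lines mark a fold of 2 in either direction. No point lies beyond a dotted line, and the intervals of HM13 and XKR7 on the right and of PLAGL2 on the left do not include 0 before adjustment.

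The second tested comparison asked whether the 10 genes had already risen in P2 hESCs. None passed the thresholds by edgeR, where 0% of all tested genes passed, and DESeq2, which passed 0.168%, passed none of the 10 either. With both tools 1 of 10 was under an unadjusted p of 0.05, where edgeR had 9.14% of tested genes under it and DESeq2 4.94%. That gene was PLAGL2, at 0.50 (95% interval 0.01 to 1.00, adjusted p = 0.539 by edgeR). HM13 was the lowest, at -0.50 (-1.09 to 0.09, adjusted p = 0.603 by edgeR). The upper bound of the interval was under 0.58, the log2 of a 1.5-fold rise, for 8 of the 10 genes, all but PDRG1 (0.86) and PLAGL2.

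The 2 samples of a stage differed among themselves for some of these genes, and the direction was set beside the mitochondrial share. In P1, P3 and P4, the stages whose samples differed in that share, 5 of 10 genes moved in the same direction from the sample with less to the sample with more mitochondrial RNA, against 27.7% of all tested genes. HM13 and POFUT1 were higher in the sample with more, and PDRG1, PLAGL2 and KIF3B were lower. HM13 moved by 0.51 in P1, 0.78 in P3 and 0.40 in P4 on the log2 scale and was the one gene of the 10 to move by more than 0.3 in each, where 5.54% of tested genes did so. PLAGL2 moved by -0.55, -0.41 and -0.24, PDRG1 by -0.45, -0.11 and -0.78, and KIF3B only by -0.06, -0.07 and -0.18. A link to the mitochondrial share was not tested.

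**Figure D4:**
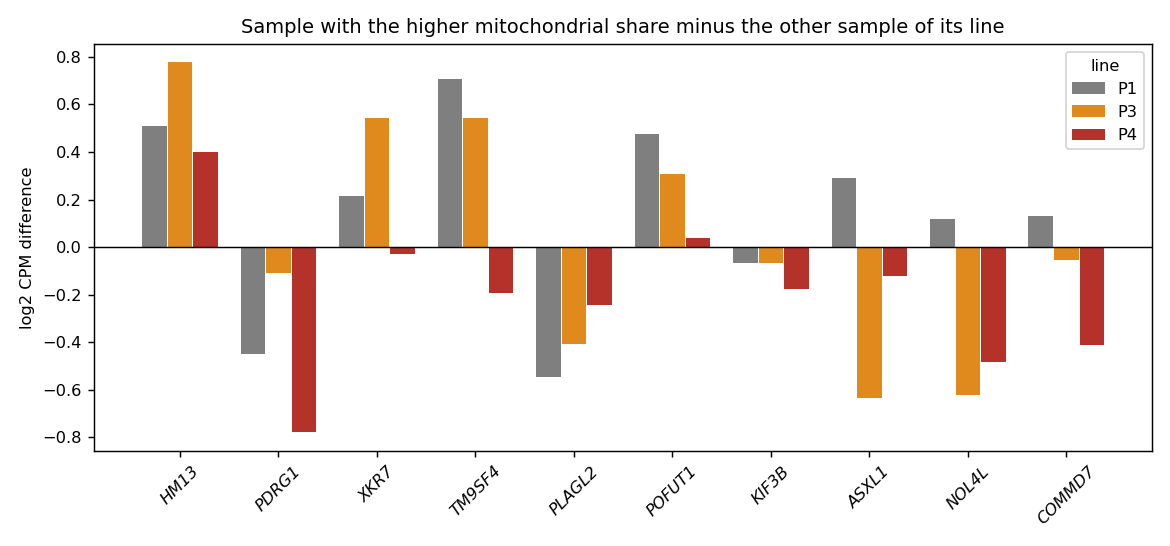
Difference in log2 CPM between the sample with the higher mitochondrial share and the other sample of the same stage, for the 10 genes in P1, P3 and P4 hESCs (bars, 1 pair of samples each). Bars of all 3 stages point up for HM13 and POFUT1 and down for PDRG1, PLAGL2 and KIF3B, while those of the other 5 genes point both ways.

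Values were also taken between samples of like mitochondrial share. With only the samples of higher share, 1 per stage, the median log2 difference from P1 was 1.41 in P3 and 1.27 in P4, and with only those of lower share it was 1.59 in both. The smallest single values were those of ASXL1, 0.68 in P3 and 0.52 in P4, both at the higher share. From P3 to P4 the median was -0.15 at the higher share and 0.02 at the lower, and HM13 was lower in P4 at both, with differences of -0.96 and -0.58. These splits were chosen after the data were seen, leave 1 sample per stage and have no test, and they use the contrast that set the interval.

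Partner and relative genes elsewhere in the genome were examined next, because each of the 10 proteins acts with others or has paralogs. Of 81 genes on 10 lists, 78 were tested. In P3 against P1, 5 of the 78 passed the thresholds by edgeR, where 3.93% of all tested genes passed, and 14 had an FDR under 0.05 (5 higher and 9 lower), where 12.5% did (4.49% higher and 8% lower). In P4 against P1, 1 passed, where 2.11% did, and 2, both higher, had an FDR under 0.05, where 5.94% did (2.54% higher). Over the 78 genes the median was 0.05 in P3 and -0.0031 in P4. The count in P3 fell to 3 without P1 replicate 1, to 0 without P1 replicate 2, to 1 without P3 replicate 1 and to 2 without P3 replicate 2, and the count of 1 in P4 fell to 0 without any one sample of P1, P2 or P4. At their own threshold, the calls of all 14 genes in P3 and of both in P4 ended when some single sample was left out.

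The 5 partner genes higher in P3 with an FDR under 0.05 were on the lists of PDRG1, COMMD7 and KIF3B. Of the 10 tested PAQosome genes, partners of PDRG1, only UXT, a prefoldin-like subunit, passed. It was at 25.1 and 22.8 CPM in P1, 23.7 and 27.2 in P2, 60.1 and 46.3 in P3, and 53.5 and 50.9 in P4. All late samples were above all early ones, with log2 fold changes of 1.15 ± 0.21 in P3 (adjusted p = 0.0042 by edgeR) and 1.13 ± 0.21 in P4 (adjusted p = 0.0072 by edgeR). The P3 call of UXT ended without P1 replicate 1, P1 replicate 2 or P3 replicate 1 (adjusted p = 0.020 to 0.063 by edgeR), and its P4 call without any one sample of P1, P2 or P4 (0.015 to 0.099). Of the 15 Commander genes, partners of COMMD7, CCDC22 passed in P3 alone, at 1.58 ± 0.26 (adjusted p = 0.0027 by edgeR), and was at 0.97 ± 0.26 in P4 (adjusted p = 0.044 by edgeR). Its P3 call ended without P1 replicate 1, P1 replicate 2 or P3 replicate 1 (adjusted p = 0.019 to 0.026 by edgeR), and its P4 value lost an FDR under 0.05 without any one sample of P1, P2 or P4 (0.070 to 0.19). The P4 minus P3 difference of CCDC22 was -0.61 ± 0.25 (adjusted p = 0.21 by edgeR). UXT and CCDC22 both lie on the X chromosome. Other tested genes of the lists on this chromosome were HCFC1, OGT, XK and XKRX, at -0.62, -0.27, -0.21 and 0.41 in P3.

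With an FDR under 0.05 and no fold minimum, COMMD1 (0.85) and VPS29 (0.77) also rose in P3 and COMMD8 fell by 1.35 on the log2 scale. COMMD1 and COMMD8 lost this without any one sample of P1 or P2 or without P3 replicate 1, and VPS29 without any one sample of P1, P2 or P3. COMMD8 was at -0.88 without P3 replicate 1 and at -2.05 without P3 replicate 2. Over the 15 Commander genes the median was 0.39 in P3 and 0.14 in P4, with 11 above 0 in each. Of the 4 kinesin-2 genes, relatives and partners of KIF3B, KIFAP3, the accessory subunit, rose in P3 at 1.44 ± 0.32 with an FDR under 0.05, and without P1 replicate 2 was at 1.09 (adjusted p = 0.14 by edgeR). The more abundant KIF3C and KIF3A were at 0.33 and 0.26 and did not pass. COMMD1, VPS29, COMMD8, KIFAP3 and the others given here under the FDR of 0.05 alone were chosen for naming after their values were seen.

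Genes of the POFUT1 list, which holds Notch receptors, their pathway and the paralog POFUT2, mostly had log2 fold changes below 0 against P1. Of the 19 tested, 3 were above 0 in P3, where 48.4% of all tested genes were, and 16 below, with a median of -0.72. Below 0 were 14 in P4, with a median of -0.21, and also 14 in P2, with a median of -0.34. Above 0 were 5 in each, where 49.3% of all tested genes were in P4 and 9474 of 19499 in P2. The P1 samples themselves lay far apart for some, such as NOTCH3 at 158 and 369 CPM, so low values in P2 and P4 may rest on P1 replicate 2. JAG2, at 16.6 and 27.3 CPM in P1 and 20.6 and 17.5 in P4, was above P1 replicate 1 in both P4 samples. NOTCH2, at 121 and 182 in P1 and 96.3 and 88.8 in P4, was below both P1 samples. The P2 and P4 counts were not taken without P1 replicate 2. POFUT2, counted among the 16, was at -0.56 in P3. NOTCH1 was at 112 and 187 CPM in P1, 112 and 134 in P2, 57.9 and 62.2 in P3, and 123 and 116 in P4. Both P3 samples were thus below all others, and its log2 fold change was -1.31 ± 0.24 in P3 (adjusted p = 0.0049 by edgeR) and -0.33 ± 0.23 in P4 (adjusted p = 0.46 by edgeR). The P3 call of NOTCH1 ended without P1 replicate 2 (-0.89, adjusted p = 0.066 by edgeR) or without either P3 sample. The ligand gene JAG2 was at -1.49 ± 0.29 in P3 (adjusted p = 0.0076 by edgeR) and -0.21 ± 0.28 in P4 (adjusted p = 0.72 by edgeR). Its P3 call ended without P1 replicate 2 (-1.08, adjusted p = 0.11 by edgeR) or without any one sample of P2 or P3 (adjusted p = 0.011 to 0.042). LFNG, NOTCH2 and DLL1 were also lower in P3 with an FDR under 0.05, at -0.95, -0.91 and -1.89, which made 5 of 19 lower genes, where 8% of all tested genes were. Without P1 replicate 2 the values of LFNG and NOTCH2 were -0.60 and -0.58 (adjusted p = 0.26 by edgeR for both), and both also lost the FDR under 0.05 without P3 replicate 2, as LFNG did without P3 replicate 1.

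DLL1, a Notch ligand gene, was at 9.88 and 27.8 CPM in P1, 11.6 and 13.1 in P2, 7.61 and 2.62 in P3, and 13.5 and 20.2 in P4. Both P3 samples were below all others, but the samples within P1 and within P3 lay far apart. Its P3 value was -0.95 without P1 replicate 2 (adjusted p = 0.38 by edgeR), -1.30 without P3 replicate 2 (adjusted p = 0.12 by edgeR) and -2.84 without P3 replicate 1, and over all alternatives its adjusted p ranged from 3.8e-08 to 0.38.

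Between P4 and P3 none of the 78 passed the thresholds by edgeR, where 0.815% of all tested genes did. At an unadjusted p under 0.05 were 22, where 19.2% of all tested genes were, and 4 passed with DESeq2, where 3.13% did. NOTCH1 (0.99), DLL3 (1.58) and JAG2 (1.28) were higher in P4 with an FDR under 0.05, where 3.31% of tested genes had one (2.19% higher), so for these 3 the difference between the stages was itself tested. NOTCH1 lost this without any one sample of P2, P3 or P4, JAG2 without any one sample of P2 or P4 or without P3 replicate 2, and DLL3 without any one sample other than P3 replicate 1. DLL3 was at 1.03 without P3 replicate 2 and at 2.45 without P3 replicate 1. POFUT1 was above P1 in both late stages, as given above.

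Partners of the nuclear and the other membrane proteins held 1 gene that passed. Of 10 genes of the ASXL1 list, which holds BAP1 and its cofactors, MBD6 passed in P3, where it fell by 1.20 (SE 0.21, adjusted p = 0.0038 by edgeR), and it was at -0.50 ± 0.21 in P4. The call ended without any one sample of P1 or P3 (adjusted p = 0.012 to 0.050 by edgeR). BAP1 itself was at 0.08 and 0.10. PLAG1 and PLAGL1, relatives of PLAGL2, were at 0.15 and -0.77 in P3 and at 0.21 and -0.75 in P4, and NOL4 was at 0.12 and 0.45, none of them past a threshold. Of 7 tested genes of the HM13 list, SPPL2B, a related protease, was lower in P3 with an FDR under 0.05, at -1.17 ± 0.27, while DERL1 was at 0.36. SPPL2B was at -0.65 without P1 replicate 2 (adjusted p = 0.22 by edgeR) and also lost the FDR under 0.05 without P3 replicate 1. TM9SF1, a relative of TM9SF4, was lower in P3 at -0.94 ± 0.26 with an FDR under 0.05, and TM9SF3 and TM9SF2 were at 0.17 and 0.30. TM9SF1 was at -0.57 without P3 replicate 2 and at -1.43 without P3 replicate 1, and it lost the FDR under 0.05 without P3 replicate 2 or any one sample of P1 or P2. None of the 7 tested XK family genes passed, with XKR8 at 0.12 and XKR5 at -0.66 in P3.

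**Figure D5:**
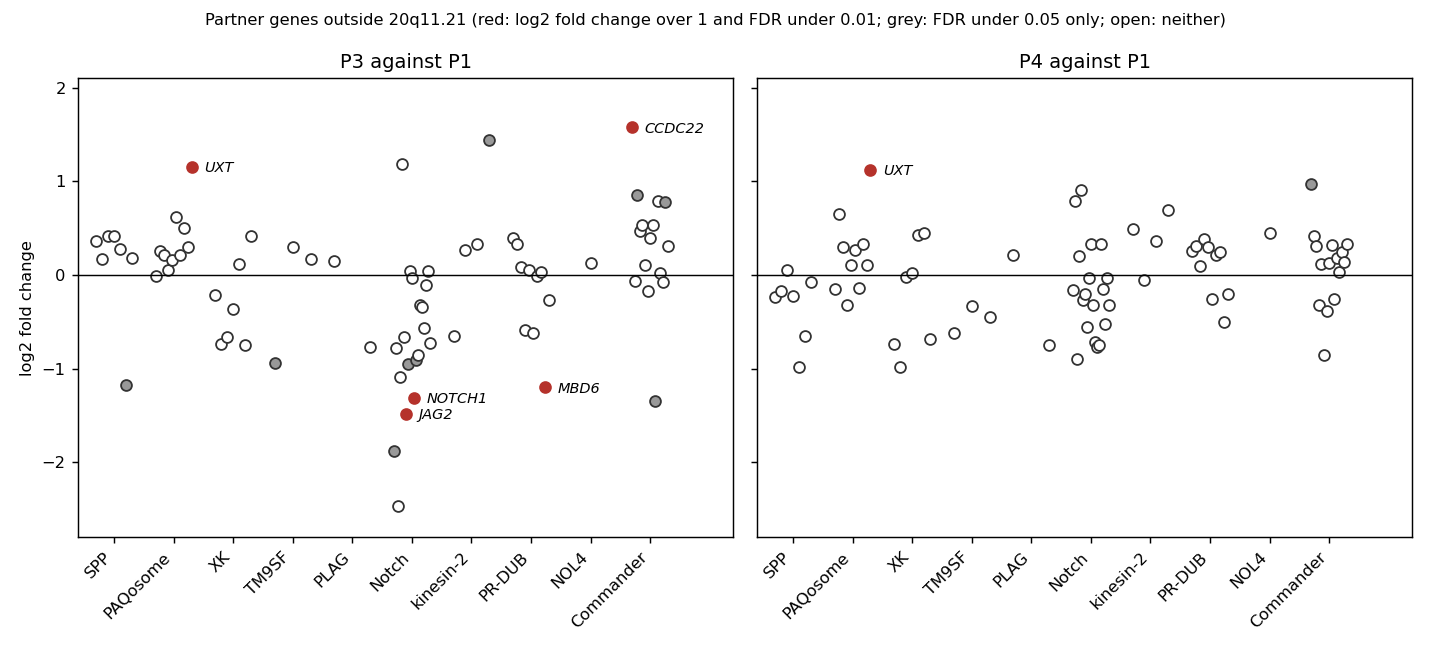
Log2 fold change of 78 partner and related genes in P3 (left) and P4 (right) hESCs against P1, 1 point per gene, by list. Red points passed a log2 fold change above 1 and an FDR under 0.01, grey points an FDR under 0.05, and open points neither; UXT is red in both panels, and the Notch genes lie mostly below 0 on the left.

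The 5 genes outside chromosome 20 with the profile most like the mean of the 10, by the root mean square difference of centred log2 CPM over the 8 samples, were RAB9A (0.15), ITLN2 (0.17), GPKOW (0.18), SNCG (0.19) and LAMA4 (0.19). RAB9A and GPKOW lie on the X chromosome, and the others on chromosomes 1, 10 and 6. RAB9A, a small GTPase of endosomes, was at 19.3 and 15.2 CPM in P1, 15.9 and 15.96 in P2, 43.1 and 41.2 in P3, and 42.4 and 46.2 in P4. KIF3B, at 0.11, and POFUT1, at 0.14, were the genes of the 10 nearer to this mean than RAB9A was.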

How the data were processed

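Strand-specific mRNA libraries of 8 samples (4 passage stages, 2 samples each) were analysed from the deposited gene tables. The authors aligned reads with STAR 2.7.3a and estimated expected counts per gene with RSEM 1.3.3 on GRCh38, per the submitters' processing notes, which also name Trim Galore and FastQC. The deposited expected counts are unscaled estimates with decimals. The files also hold TPM values deposited by the authors, which RSEM scales by effective length, and the weighted transcript length of each gene. The annotation release and the strand setting of the counting are not given in the sources used here.

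Expected counts were rounded and fitted with edgeR 4.0.16 (R 4.3.3; quasi-likelihood test, TMM, filterByExpr by stage, 4 groups), which kept 19499 of 60675 genes. P-values were adjusted by Benjamini-Hochberg over all of them. SE is the log2 fold change divided by the square root of F, and CPM uses the TMM factors. Alternatives were DESeq2 1.42.0, its size factors, no mitochondrial genes, no filter, the replicate number as a block, limma 3.58.1 on log2(TPM + 1) and log2(TPM + 0.1), 4 samples alone, an FDR under 0.05, and leaving out each sample. Shares of all genes called by DESeq2 are over the genes it gave an adjusted p (18874 for P4 against P3 and 20194 for P2 against P1), and those at an unadjusted p are over 34063 genes. The split by mitochondrial share was chosen after seeing the data.

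The 10 genes, the partner lists and the marker lists were chosen with earlier results of these data known. Named besides them were the other genes of the interval (as examples), the 2 nearest tested genes on each side, partner genes that passed or else the 2 most abundant of a list, and the 5 genes with the nearest profile. Of 81 partner genes, 80 were found and 78 passed the filter. Symbols came from a gene name table (56558 identifiers matched) and positions and overlaps from GENCODE release 29. On simulated counts of the 19499 genes, with 200 changed between P4 and P3, edgeR called 80% of those changed 4-fold and gave 43% of those changed 2-fold an FDR under 0.05. Across genes, the differences between replicates 1 and 2 correlated between stages with r of -0.09 to 0.14, so the numbers did not pair the samples. A floor of 3 counts was 0.0787 to 0.112 CPM of the raw totals. Folds against groups at 0 use 3 counts in that group's library with the highest CPM of 3 counts and are lower bounds. Intervals and floors cover counting error only or the spread between these samples.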

Additional observations from a re-analysis of the deposited data

Results flagged for a closer look

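Results on which the late stages P3 and P4 differed by a test of the difference itself came from outside the 10 genes. NOTCH1 was higher in P4 than in P3 by a log2 fold change of 0.99 (SE 0.24, adjusted p = 0.042 by edgeR), with both P4 samples above both P3 samples. DLL3, a Notch ligand gene, was higher by 1.58 (SE 0.38, adjusted p = 0.040 by edgeR), at 13.4 and 5.02 CPM in P3 and 26.2 and 28.7 in P4. JAG2 was higher by 1.28 (SE 0.29, adjusted p = 0.034 by edgeR), at 9.54 and 6.16 CPM in P3 and 20.6 and 17.5 in P4. Over all alternatives their adjusted p ranged from 0.00096 to 0.20, from 2.4e-06 to 0.18 and from 0.00032 to 0.20. ID1, a gene of the interval but not of the 10, was higher in P4 by 1.77 (SE 0.31, adjusted p = 0.0096 by edgeR). Its call ended without any one sample other than P4 replicate 1. FRG1BP, a proximal neighbour of the interval, was at least 17.7-fold higher in P4 than in P3, with 0 and 1.03 counts in P3 and 40.16 and 59.41 in P4. It passed the filter on low counts only through the P4 samples, where it is high. Its difference is therefore given as a description without a test.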

How the results depend on the processing

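The 10 genes kept 0 calls in P2 against P1 and in P4 against P3 under every alternative. Their median log2 fold change on the log2(TPM + 1) and log2(TPM + 0.1) scales was 0.14 and 0.15 for P2 against P1, 1.32 and 1.40 for P3 against P1, and 0.17 and 0.18 for P4 against P3. Leaving out 1 sample gave medians of -0.10 to 0.046 (P2 against P1), 1.44 to 1.57 (P3), 1.32 to 1.53 (P4) and -0.15 to 0.055 (P4 against P3). The samples of higher mitochondrial share alone gave 1.41 (P3), 1.27 (P4) and -0.15 (P4 against P3), and those of lower share gave 1.59 (P4). The causes were not tested.

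Partner calls in P3 against P1 were 11 with no filter, 0 on both TPM scales, 14 at an FDR under 0.05 and 0 to 5 with 1 sample left out. In P4 against P1 they were 2 with no filter, 0 on both TPM scales, 0 with only 4 samples, 2 at an FDR under 0.05 and 0 to 1 with 1 sample left out. In P4 against P3 they were 4 with DESeq2, 6 with no filter, 3 at an FDR under 0.05 and 0 to 1 with 1 sample left out.

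Small values of single genes changed sign. In P2 against P1, on log2(TPM + 1) and log2(TPM + 0.1), XKR7 was at 0.048 and 0.071, POFUT1 at 0.19 and 0.20 and NOL4L at 0.093 and 0.10, and NOL4L was at 0.010 with no filter. With 1 sample left out, XKR7 ranged from -0.15 to 0.039, TM9SF4 from -0.67 to 0.012, POFUT1 from -0.30 to 0.15, NOL4L from -0.083 to 0.058 and COMMD7 from -0.0054 to 0.10. In P4 against P3, POFUT1 was at 0.14 on both TPM scales. With 1 sample left out, PDRG1 ranged from -0.18 to 0.60, TM9SF4 from -0.052 to 0.49, PLAGL2 from -0.079 to 0.33, POFUT1 from -0.30 to 0.015 and NOL4L from -0.13 to 0.49.

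When the replicate numbers entered the model as a block, the medians were -0.04, 1.55, 1.38 and -0.02 (P2, P3 and P4 against P1, and P4 against P3), partner calls were 4, 1 and 0 (P3 and P4 against P1, and P4 against P3), and the call of JAG2 P3 vs P1 was lost (adjusted p = 0.0106 by edgeR). The correlations between stages were too small for a pairing. At 2 samples per stage, edgeR gave 43% of simulated 2-fold differences between P4 and P3 an FDR under 0.05. Exons of HM13, PDRG1, POFUT1, NOL4L and COMMD7 overlap other annotated genes, so their counts may be mixed.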
